A study of Mus musculus with 8 samples.

Results

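The Hox genes are homeobox transcription factors that lie in 4 clusters of the mouse genome, Hoxa to Hoxd. The members described here were the 38 Hox genes named in a fixed list, found by their symbol in the annotation of the array, with 1 probe set per gene chosen by the highest mean signal over the 8 arrays. Of the 38, 36 had a probe set of their own, among 22180 genes that had one. Hoxa11 and Hoxd4 were named only on probe sets shared between genes and were not analysed here. After a filter on dim genes 32 members were tested, among 16635 genes. The 4 members under the filter, a mean signal of 4.11 on the log2 scale, were Hoxa13, Hoxc5, Hoxc11 and Hoxd13, with values from 2.62 to 4.13.

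Genes of a Hox cluster are numbered by paralog group from the 3′ end to the 5′ end of the cluster, and genes that share a number in different clusters are paralogs. Genes of low number are expressed up to the head and neck and genes of high number only towards the tail, so that the set of Hox genes active in a cell records its position along the body. Smooth muscle of the ascending aorta comes largely from neural crest and second heart field, and that of the descending aorta from paraxial mesoderm, so that the vessel joins cells of different axial origin.

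The mice were newborn (p0), of albino C57BL/6J background, and either wild type (WT) or knockout (KO) for Lox, the enzyme lysyl oxidase, which cross-links elastin and collagen. The ascending segment ran from the aortic valve to the ductus arteriosus, and the descending segment from the vena cava to the diaphragm. Each array held RNA from a pool of 8 pups of 1 genotype and segment, and each of the 4 groups had 2 arrays. The labels describe the groups as biological replicates and do not say which pups gave both segments, so that p-values measure the spread between pools. Because whole tissue was pooled, fewer cells of a type and less RNA per cell cannot be told apart.

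The array medians lay between 5.11 and 5.19 on the log2 scale. Lox read 11.24 to 11.60 on the WT arrays and 8.51 to 8.87 on the KO arrays, as the labels give them. Smooth muscle markers were high on every array, with Acta2 at 12.42 to 12.63 and Tagln at 11.49 to 11.68. The number of arrays, 2 in a group, limits the precision of every value.

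The promoter sequences of 4 members called between the segments are shown first: Hoxb8, Hoxa6 and Hoxa7, which were higher in the descending segment, and Hoxa2, the member that was lower there. Each is the 250 bases before the RefSeq start of the gene on build GRCm38.p6, read 5′ to 3′ on the strand of the gene. Such windows were found for 22 of the 38 listed genes, 24 windows in all, but not for Hoxb6 or Hoxc6, which had the largest rises. Capitals mark matches on either strand to TTTATG, a motif of Cdx factors, to TGATNNAT, a motif of Pbx-Hox pairs, and to TGACAG, a motif of Meis factors. The matches in the windows shown do not overlap.
Hoxb8, chr11:96281655-96281904, plus strand: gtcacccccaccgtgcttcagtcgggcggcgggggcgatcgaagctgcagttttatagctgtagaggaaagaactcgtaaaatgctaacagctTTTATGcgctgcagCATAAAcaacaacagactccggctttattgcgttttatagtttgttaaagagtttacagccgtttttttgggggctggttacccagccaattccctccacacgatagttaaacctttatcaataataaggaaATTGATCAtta
Hoxa6, chr6:52208673-52208922, minus strand: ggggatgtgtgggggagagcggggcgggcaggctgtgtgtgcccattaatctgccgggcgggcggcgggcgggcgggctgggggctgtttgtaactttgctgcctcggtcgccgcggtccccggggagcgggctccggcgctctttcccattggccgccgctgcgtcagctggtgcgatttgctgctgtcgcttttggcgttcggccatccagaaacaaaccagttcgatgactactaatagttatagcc
Hoxa7, chr6:52218574-52218823, minus strand: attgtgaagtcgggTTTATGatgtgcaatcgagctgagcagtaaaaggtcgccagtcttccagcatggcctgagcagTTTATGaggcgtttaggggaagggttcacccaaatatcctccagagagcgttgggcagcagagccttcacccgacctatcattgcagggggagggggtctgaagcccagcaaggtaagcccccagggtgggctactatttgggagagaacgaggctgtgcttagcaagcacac
Hoxa2, chr6:52164832-52165081, minus strand: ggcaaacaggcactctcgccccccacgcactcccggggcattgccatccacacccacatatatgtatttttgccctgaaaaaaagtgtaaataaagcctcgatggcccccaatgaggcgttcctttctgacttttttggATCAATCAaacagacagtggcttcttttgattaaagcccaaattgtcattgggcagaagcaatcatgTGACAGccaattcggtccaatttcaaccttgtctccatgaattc
TTTATG was found in 5 of the 24 Hox windows, 20.8%, and in 10.8% of all 32851 promoter windows of that length. TGATNNAT was found in 4 Hox windows, 16.7%, against 7.68% of all windows. TGACAG was found in 2 Hox windows, 8.33%, against 15.9% of all. Of the 8 members with a window that were higher in the descending segment, 2 held TTTATG, Hoxa7 and Hoxb8, each with 2 matches, and 1 held TGATNNAT, Hoxb8. Hoxa6 held none of the motifs in this window. Members not called between the segments had 11 windows in 9 genes, of which 2 windows held TTTATG and 2 held TGATNNAT. A link between these motifs and the segment differences was not tested.

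The first comparison asked how the members differ between the descending and the ascending aorta. Averaged over both genotypes, 13 of 32 tested members rose in the descending aorta and 1 fell (limma, Benjamini-Hochberg adjusted p under 0.05 over all genes tested), where 2.57% of all genes tested rose, 1.5% fell and 4.07% did either. The median difference was 0.09 on the log2 scale over the 32 members and 0.0025 over all genes. Every tested gene of paralog groups 6, 7 and 8 rose, 8 of 8, with a median of 1.79. Of paralog groups 4 and 5, 4 of 5 rose; of group 9, 1 of 4; of groups 1 to 3, 0 of 7, with 1 lower; and of groups 10 to 13, 0 of 8. Hoxb6 and Hoxc6 had the largest and the second largest rises of all 16635 genes. Without the filter on dim genes, 13 of all 36 measured members rose and 1 fell.

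By cluster, 4 of 8 tested members of Hoxa rose and 1 fell, 5 of 10 rose in Hoxb, 3 of 7 in Hoxc and 1 of 7 in Hoxd. All 4 descending arrays lay above all 4 ascending arrays for 14 members, a pattern found in 4.19% of all genes tested. The reverse held for 1 member, Hoxd3, against 3.07% of all genes. Hoxb7 and Hoxb8 passed the filter through their descending arrays, since their ascending means lay below the filter value.

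**Figure D1:**
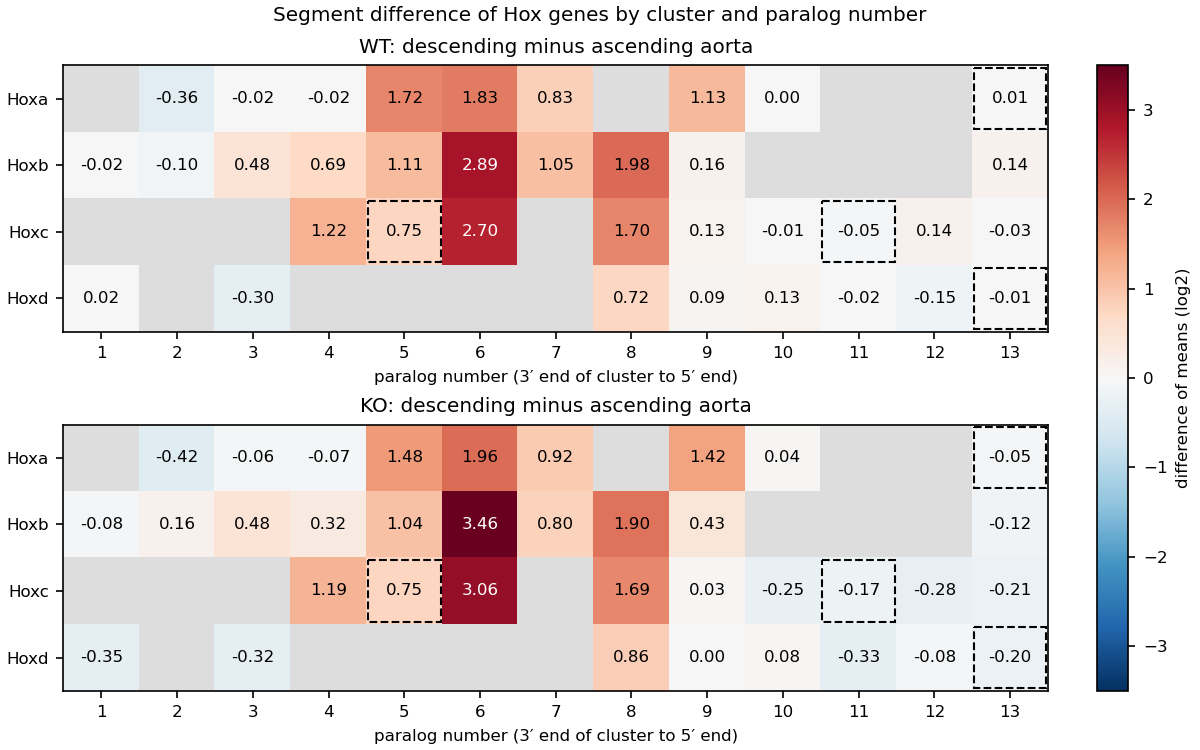
Difference of group means between descending and ascending aorta (log2, colour and printed value) for the 36 measured Hox genes, by cluster (rows) and paralog number (columns), in WT (top) and KO (bottom). Grey cells hold no measured gene and dashed outlines mark the 4 dim genes; the larger positive values lie in paralog groups 4 to 9, with the highest at Hoxb6 (2.89 in WT, 3.46 in KO).

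Paralog group 6 held the largest differences. Hoxb6, a factor of trunk identity, read 4.30 and 4.90 on the WT ascending arrays, 7.33 and 7.66 on the WT descending arrays, 4.38 and 4.11 on the KO ascending arrays and 7.69 and 7.73 on the KO descending arrays. All descending values lay at least 2 log2 units above all ascending values. The average rise was 3.18 (SE 0.14), a 9.05-fold difference, with an adjusted p of 2.85e-05. Hoxc6, its paralog in the Hoxc cluster, read 4.02 and 3.70 in WT ascending, 6.65 and 6.48 in WT descending, 4.50 and 4.38 in KO ascending and 7.35 and 7.66 in KO descending aorta. The segments were again apart in both genotypes, and the KO descending arrays were the highest. Hoxc6 rose by 2.88 on the log2 scale (SE 0.11), with an adjusted p of 1.23e-05, and no fold is given because its WT ascending mean of 3.86 lay under the filter value of 4.11. Hoxa6 read 5.24 and 5.20 in WT ascending, 7.20 and 6.90 in WT descending, 5.20 and 5.06 in KO ascending and 7.15 and 7.03 in KO descending aorta. The WT and KO arrays of Hoxa6 overlapped in the descending segment and came close in the ascending segment, and the rise was 1.89 (SE 0.09), or 3.72-fold, with an adjusted p of 3.74e-05.

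Group 8 was measured in 3 clusters, and all rose. Hoxb8, whose window holds 2 Cdx-type matches, read 3.60 and 3.78 in WT ascending, 5.70 and 5.64 in WT descending, 4.35 and 3.66 in KO ascending and 6.07 and 5.73 in KO descending aorta. Its rise was 1.94 on the log2 scale (SE 0.15), with an adjusted p of 0.000386, and no fold is given because its ascending means lay under the filter value. The KO ascending pools of Hoxb8 were further apart than the other pairs. Hoxc8 read 3.86 and 4.37 in WT ascending, 5.93 and 5.71 in WT descending, 4.87 and 4.44 in KO ascending and 6.48 and 6.21 in KO descending aorta, and rose by 1.69 (SE 0.14; adjusted p 0.000582). In both segments the KO arrays of Hoxc8 lay above the WT arrays. Hoxd8, the only tested gene of the Hoxd cluster that rose, read 6.14 and 6.25 in WT ascending, 6.89 and 6.93 in WT descending, 6.19 and 5.93 in KO ascending and 7.00 and 6.84 in KO descending aorta. The values of Hoxd8 separated by segment and overlapped between genotypes, with a rise of 0.79 (SE 0.09), or 1.73-fold (adjusted p 0.00182).

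Both tested genes of group 7 rose. Hoxa7 read 5.04 and 5.21 in WT ascending, 5.94 and 5.98 in WT descending, 5.45 and 4.98 in KO ascending and 6.02 and 6.25 in KO descending aorta. Hoxa7 rose by 0.88 (SE 0.11; adjusted p 0.00442). Hoxb7 read 3.65 and 3.67 in WT ascending, 4.50 and 4.92 in WT descending, 3.79 and 3.66 in KO ascending and 4.45 and 4.61 in KO descending aorta, and rose by 0.92 (SE 0.10; adjusted p 0.0021). For both genes the segments did not overlap.

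Groups 4 and 5 held genes that rose beside 1 that did not pass. Hoxa5, which is needed for lung and skeletal patterning, read 5.66 and 5.87 in WT ascending, 7.52 and 7.45 in WT descending, 5.47 and 6.04 in KO ascending and 7.21 and 7.25 in KO descending aorta. It rose by 1.60 (SE 0.12), or 3.03-fold, with an adjusted p of 0.000387. The ascending pools of the KO were the most spread of its pairs. Hoxb5 read 5.52 and 5.35 in WT ascending, 6.55 and 6.53 in WT descending, 5.88 and 5.91 in KO ascending and 6.95 and 6.92 in KO descending aorta. On this probe set the 4 groups of Hoxb5 were ordered without overlap, WT ascending, KO ascending, WT descending and KO descending. The rise between segments was 1.07 (SE 0.07; adjusted p 0.000247). Hoxb5 was the one member with another probe set of its own, which gave a rise of 2.00 (SE 0.07; adjusted p 8.22e-06). That other probe set did not show the order by genotype. It read 4.71 and 4.76 in WT ascending and 4.68 and 4.77 in KO ascending aorta. In descending aorta it read 6.77 and 6.87 in WT and 6.70 and 6.60 in KO.

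Hoxc4 read 4.43 and 4.37 in WT ascending, 5.42 and 5.83 in WT descending, 4.55 and 4.60 in KO ascending and 5.58 and 5.94 in KO descending aorta, a rise of 1.21 (SE 0.11; adjusted p 0.000934). Its paralog Hoxb4 read 6.19 and 6.05 in WT ascending, 6.71 and 6.91 in WT descending, 6.03 and 6.35 in KO ascending and 6.64 and 6.39 in KO descending aorta. The KO segments of Hoxb4 came within 0.1 of each other, and the average rise was 0.51 (SE 0.10; adjusted p 0.0336). That call ended with the replicate block (adjusted p 0.0516) and without any 1 of 6 arrays, all but KO ascending replicate 2 and KO descending replicate 2, with adjusted p up to 0.12. Hoxa4, a paralog of both, read 5.46 and 5.50 in WT ascending, 5.48 and 5.42 in WT descending, 5.49 and 5.63 in KO ascending and 5.37 and 5.60 in KO descending aorta. Its groups overlapped, and the difference was -0.05 (95% interval -0.23 to 0.14; adjusted p 0.866).

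Group 9 was split. Hoxa9, which also works in blood progenitors, read 5.02 and 5.21 in WT ascending, 6.61 and 5.87 in WT descending, 4.78 and 4.95 in KO ascending and 6.30 and 6.27 in KO descending aorta. The WT descending pools differed by more than the other pairs, and the rise was 1.27 (SE 0.15), or 2.41-fold, with an adjusted p of 0.0024. Hoxb9 read 4.77 and 4.67 in WT ascending, 4.93 and 4.82 in WT descending, 5.09 and 4.94 in KO ascending and 5.36 and 5.54 in KO descending aorta, a difference of 0.29 (SE 0.08; adjusted p 0.0986). The differences of Hoxc9 and Hoxd9 were 0.08 and 0.04, with adjusted p of 0.714 and 0.911. No difference in response between the paralogs themselves was tested, because each gene was read by a probe set of its own.

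Among groups 1 to 3 the only call was in the other direction. Hoxa2, a patterning gene of hindbrain and cranial neural crest and the member shown above with a Pbx-Hox and a Meis match, read 7.80 and 7.98 in WT ascending, 7.55 and 7.51 in WT descending, 7.45 and 7.55 in KO ascending and 7.12 and 7.05 in KO descending aorta. Each genotype was lower in its descending arrays, while the KO ascending and WT descending arrays overlapped. Hoxa2 fell by 0.39 (SE 0.08) with an adjusted p of 0.0266. The call ended with arrays shifted to 1 median and without any 1 array other than WT ascending replicate 1, with adjusted p up to 0.0941. Hoxb3 and Hoxd3 had differences of 0.48 and -0.31 that did not pass (adjusted p 0.0809 and 0.085). Paralog groups 10 to 13, which pattern the lower trunk, limbs and tail, had 11 measured genes, all between 3.63 and 5.57 on every array, and none had an average segment difference beyond 0.17 in size. The dim Hoxc5, between Hoxc4 and Hoxc6 in the cluster, read 2.62 to 3.18 in ascending and 3.15 to 4.13 in descending aorta, and its difference of 0.75 did not pass when all genes were tested (adjusted p 0.112).

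**Figure D2:**
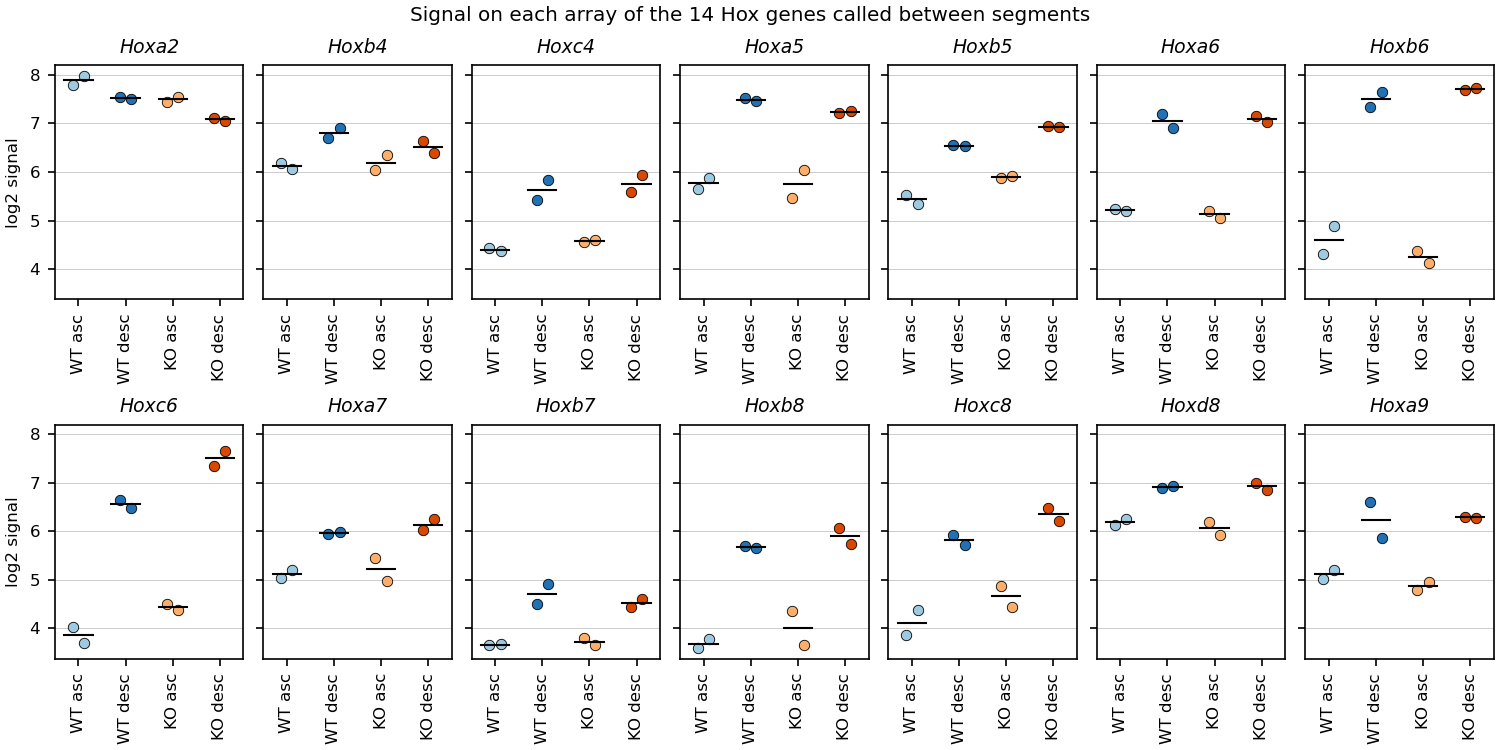
Log2 signal on each array (points; bar, mean of the 2 arrays) of the 14 Hox genes called between segments averaged over genotypes, for WT and KO ascending (asc) and descending (desc) aorta. For Hoxb6 the ascending arrays lie at 4.90 or below and the descending arrays at 7.33 or above; levels of different genes come from different probe sets and are not comparable.

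The segment difference was then tested within each genotype, in the same fit over the arrays of both genotypes. The WT and KO tests therefore shared an estimate of spread and were not independent of each other. In WT, 12 of 32 members rose in the descending aorta and 0 fell, against 0.974% and 0.511% of all genes tested, or 1.48% in either direction. In KO 12 rose and 0 fell, against 0.938% and 0.547%, or 1.48% in either direction. The same 12 genes passed in both genotypes: Hoxa5, Hoxa6, Hoxa7, Hoxa9, Hoxb5, Hoxb6, Hoxb7, Hoxb8, Hoxc4, Hoxc6, Hoxc8 and Hoxd8. In WT 6 of them stayed called under every alternative, Hoxa5, Hoxa6, Hoxb5, Hoxb6, Hoxb8 and Hoxc6, and in KO 6, Hoxa6, Hoxb5, Hoxb6, Hoxb8, Hoxc6 and Hoxc8. With only the arrays compared in the fit, the call of Hoxa9 ended in WT, and those of Hoxa7, Hoxb7 and Hoxd8 ended in KO. The WT count fell to 7 without WT ascending replicate 1 and to 7 without WT ascending replicate 2, and the KO count to 7 without KO ascending replicate 2 and to 6 without KO descending replicate 2. At an unadjusted p under 0.05 the difference between the genotypes' segment differences passed for 0 of 32 members and 932 of all genes, and limma with adjusted p called 0 members, where 0% of all genes were called.

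Over the 36 measured members the WT and KO segment differences had a Pearson correlation of 0.98 and a Spearman correlation of 0.869, given as a description of genes that share arrays. The widest gap was at Hoxb6, 2.89 in WT and 3.46 in KO. The difference of these differences was 0.57, with a 95% interval from -0.07 to 1.21 and an adjusted p of 0.895. For Hoxc6 it was 0.36, with an interval from -0.12 to 0.85. These intervals are wide, and the test does not show that the segment differences are equal.

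**Figure D3:**
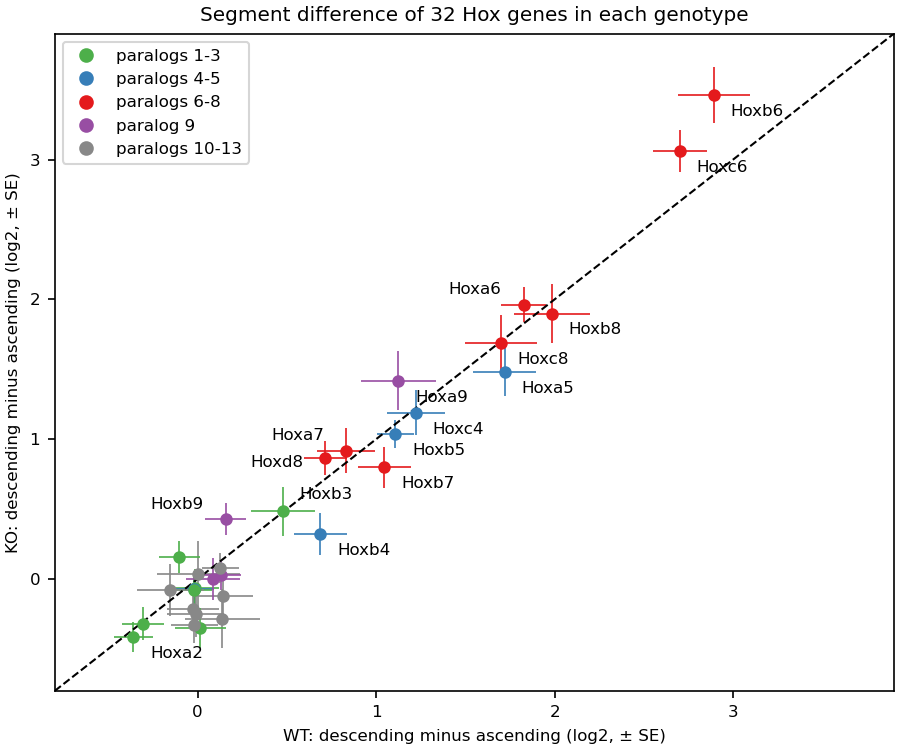
Descending minus ascending difference (log2, bars ± SE from limma) of the 32 tested Hox genes in WT (x axis) and KO (y axis), coloured by paralog group, with the line of equal difference dashed. Groups 6 to 8 spread along the line from 0.72 in WT at Hoxd8 to the largest values at Hoxb6. Groups 10 to 13 lie between -0.15 and 0.14 in WT and between -0.33 and 0.08 in KO.

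The comparison of KO with WT asked whether loss of Lox moved these genes within a segment. In the ascending aorta 0 of 32 members passed in limma, where 1.54% of all genes rose, 1.19% fell and 2.74% did either. At an unadjusted p under 0.05 there were 5 members, 15.6%, against 19.1% of all genes, so that the members were no more frequent than the background. In the descending aorta 2 members rose in KO and 0 fell, against 1.46% and 0.824% of all genes, or 2.28% in either direction. Hoxc6 was 0.94 higher in KO descending than in WT descending aorta (SE 0.15; 1.92-fold; adjusted p 0.0274). Hoxb9 was 0.57 higher (SE 0.11; 1.48-fold; adjusted p 0.0472), and its 4 KO arrays lay above its 4 WT arrays over both segments. That order was found in 1 of 32 members and 8.87% of all genes, and the reverse in 0 members and 8.13% of all genes. The Hoxc6 call ended without any 1 of the 4 descending arrays, with adjusted p from 0.00764 to 0.128 over all settings, and with only the 4 descending arrays in the fit. The Hoxb9 call ended without any 1 of the 8 arrays, with only the 4 descending arrays in the fit, with no filter on dim genes, and with the replicate block (adjusted p 0.0651), and its adjusted p ranged from 0.0385 to 0.194.

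Averaged over the segments, a comparison added after the data were seen, 4 members rose in KO and 1 fell, against 6.21% and 5.22% of all genes, so that the 15.6% of members called lay near the 11.4% of all genes called. Hoxc6 was 0.76 higher (SE 0.11; adjusted p 0.00554) and Hoxb9 0.43 higher (SE 0.08; adjusted p 0.0141). Hoxc8 was 0.53 higher (SE 0.14; adjusted p 0.0482), a call that ended with no filter on dim genes, with the replicate block and without any 1 of 6 arrays, all but WT ascending replicate 2 and KO ascending replicate 2, with adjusted p up to 0.137. Hoxb5 was 0.43 higher (SE 0.07; adjusted p 0.0101), while its other probe set gave -0.09 (SE 0.07; adjusted p 0.455), so that the Hoxb5 call rests on 1 of its probe sets. Hoxa2 was lower in KO and fell by 0.42 (SE 0.08; adjusted p 0.0125). Without WT descending replicate 1 the adjusted p of Hoxa2 was 0.0509.

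**Figure D4:**
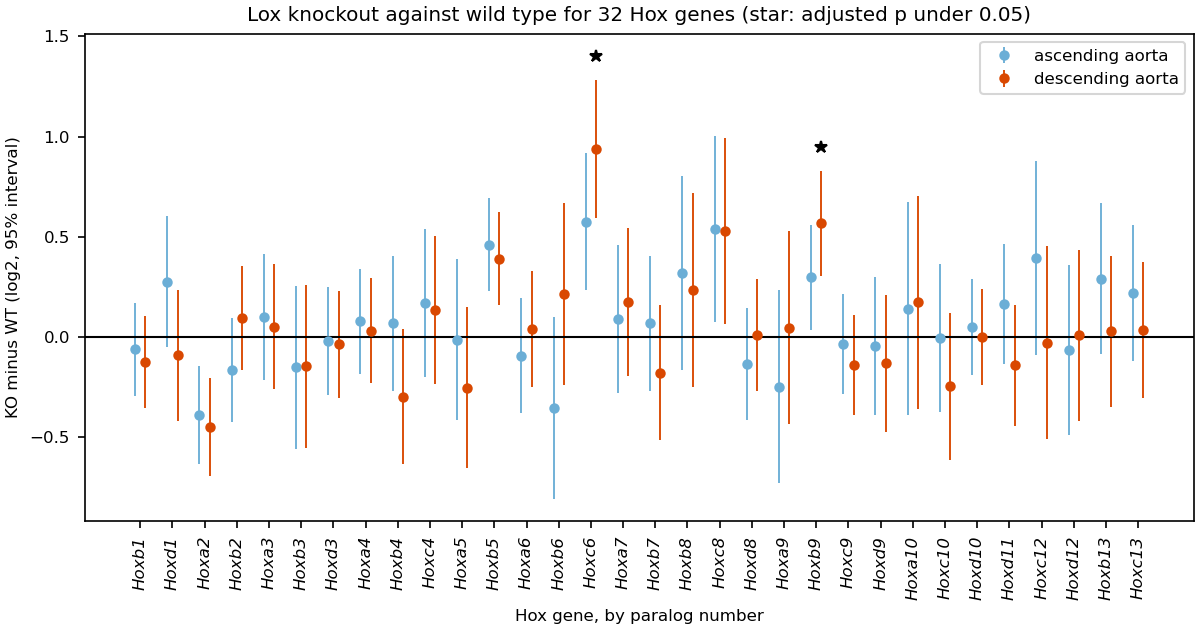
KO minus WT difference (log2, points, with 95% intervals from limma) of the 32 tested Hox genes in ascending (blue) and descending (orange) aorta, by paralog number. Stars mark the genes past an adjusted p of 0.05, Hoxc6 at 0.94 and Hoxb9 at 0.57, both in descending aorta; most intervals include 0.

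Genes known to work with or on the Hox genes were read from lists. Of TALE homeobox cofactors, which bind DNA together with Hox proteins, 0 of 8 tested genes passed in limma between the segments and 3 had an unadjusted p under 0.05, a threshold that 15.7% of all genes passed. Meis2 had the smallest p, with 7.92 and 8.05 in WT ascending and 7.76 and 7.57 in WT descending aorta and an average difference of -0.37 (SE 0.09; adjusted p 0.0636). Of the retinoic acid pathway, which induces Hox genes in the embryo, 0 of 15 passed and 3 had an unadjusted p under 0.05, with Dhrs3, a retinaldehyde reductase, at 0.31 (SE 0.07; adjusted p 0.059). Of the Cdx and ParaHox genes, which are relatives and regulators of Hox genes, 0 of 5 passed, 1 had an unadjusted p under 0.05, and Gsx1 was at -0.20 (adjusted p 0.18). Of the Polycomb and trithorax regulators, which hold Hox genes off or on, 0 of 19 passed and 0 had an unadjusted p under 0.05, with Kmt2a at -0.18 (adjusted p 0.331). These unadjusted counts are of few genes and are read as no result about the lists.

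Of non-coding genes and neighbours of the clusters, 1 of 11 rose in the descending aorta. Hoxaas3, a non-coding RNA whose span overlaps those of Hoxa3, Hoxa5 and Hoxa6, read 5.36 and 5.15 in WT ascending, 5.66 and 5.67 in WT descending, 5.01 and 5.35 in KO ascending and 5.77 and 5.66 in KO descending aorta. It rose by 0.47 (SE 0.10; adjusted p 0.0311). Signals of overlapping genes are uncertain where their probes could read the same RNA, which holds also for Hoxb5 and Hoxb6 with Hoxb5os, for Hoxb3 with Hoxb4 and for Hoxd10 with Hoxd11.

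Markers of other cell types moved with the segment in the comparison averaged over genotypes. Of the sympathetic neuron and Schwann cell markers, 3 of 4 tested rose in the descending aorta, Dbh by 2.80, Stmn2 by 1.87 and Th by 0.83, and the mean level of that list was 5.60 to 5.85 in WT ascending, 6.86 to 7.24 in WT descending, 5.63 to 5.81 in KO ascending and 7.02 to 7.24 in KO descending aorta. Of fat markers 5 of 6 rose, among them Adipoq by 1.38, with list means of 7.16 to 7.87, 8.40 to 8.77, 6.57 to 6.61 and 7.44 to 7.83 in the same order. Of endothelial markers 3 of 6 rose, Vwf by 1.07, Kdr by 0.83 and Cdh5 by 0.33, with list means of 8.67 to 8.79, 9.09 to 9.21, 8.35 to 8.37 and 8.80 to 8.86. Of the smooth muscle markers 2 of 7 fell, Myocd by 0.34 and Lmod1 by 0.43, with list means between 10.45 and 10.62 on all arrays. Of heart muscle markers 2 of 7 rose, Myl7 by 0.90 and Actc1 by 0.80. The list means were 8.50 to 8.52 in WT ascending, 8.78 to 9.11 in WT descending, 8.08 to 8.88 in KO ascending and 8.39 to 8.78 in KO descending aorta. The other heart genes were not called and differed in direction. In WT and KO, Nppa was at -1.31 and -2.05, Tnnt2 at -0.04 and -0.72 and Myh7 at -0.28 and 0.25. Myh6 was at 1.48 and 1.26 and Tnni3 at 0.99 and 0.78. Single genes of other lists were also called: the cartilage gene Acan fell by 0.71 (1 of 4 tested), Six2 of the kidney and adrenal list fell by 0.63 (1 of 5), Krt14 of squamous epithelium rose by 0.46 (1 of 5) and Sftpc of lung epithelium rose by 2.41 (1 of 6). These 2 average rises came mainly from WT. Krt14 was at 0.83 in WT and 0.09 in KO, and Sftpc at 4.60 in WT and 0.21 in KO. Averaged over genotypes, the lists for fibroblasts, skeletal muscle, thymus, liver and blood had 0 calls between the segments in limma. Each had 0 to 2 genes at an unadjusted p under 0.05. Within WT, limma called Ahsg of the liver list lower in descending aorta, at -2.05 (adjusted p 0.0356), while it was at -0.13 in KO. Within KO 0 of 6 liver genes were called, but 4 had an unadjusted p under 0.05 in limma, against 12.1% of all genes. These were Afp at 1.53, Fgb at 1.36, Alb at 1.15 and Serpina1a at 0.41, and each was negative in WT. Of the thymus list 4 of 6 had an unadjusted p under 0.05 in WT, against 12.3% of all genes, and 0 in KO. The part of these cell types in the Hox differences was not tested. The lung list had means of 4.55 to 5.27 in WT ascending, 6.09 to 6.61 in WT descending, 4.56 to 4.59 in KO ascending and 4.57 to 4.64 in KO descending aorta.

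Other markers moved with the genotype. In KO descending aorta 4 of 6 liver plasma protein genes were higher than in WT, Afp by 2.61, Fgb by 2.54, Alb by 2.22 and Ahsg by 2.06, with list means of 5.70 to 6.09 in WT descending and 7.29 to 8.35 in KO descending aorta. In the same comparison 2 of 6 lung epithelial genes were lower, Sftpc at -4.35 and Nkx2-1 at -0.78, and 1 of 6 was lower in each of the endothelial and fat lists, Kdr at -0.54 and Cidea at -1.06. Of fibroblast and adventitia genes Dpt was lower, at -0.65, and Pi16 higher, by 0.53. Averaged over segments, 5 of 6 fat genes were lower in KO, among them Adipoq at -1.08, and 3 of 6 endothelial genes, Pecam1, Kdr and Tek, at -0.35, -0.58 and -0.36. Both tested genes of the blood list were higher, S100a8 by 1.79 and S100a9 by 1.60, with list means of 7.64 to 9.12 in WT and 9.53 to 10.50 in KO. The part of these cell types in the KO against WT differences of Hoxc6, Hoxb9, Hoxb5, Hoxc8 and Hoxa2 was not tested.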

How the data were processed

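The deposited values are log2 signals, for which the submitters' processing notes name RMA and Affymetrix Expression Console. Versions: not given in the sources used here. Per the labels' protocols, NuGEN kits served for amplification and biotin labelling. RMA sets arrays to 1 distribution, so a level is relative to its array.

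Of 41345 probe sets, 23521 named 1 gene, 1814 several and 16010 none; the brightest probe set stood for a gene, and genes with a mean under the 25th percentile were left out. The fit used limma 3.58.1 in R 4.3.3, with 1 mean per gene and group over all 8 arrays and eBayes (residual df 4, prior df 4.51), tested on simulated data first. Figures were drawn with matplotlib 3.10.9. Differences are descending minus ascending and KO minus WT.

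Members, lists and tests were chosen with earlier results of these data known. Full values go to members called in a comparison and to the first uncalled members of their paralog groups; each list is represented by its genes of smallest p between segments. Alternatives changed the filter, the choice of probe set, the array scaling, the prior, the arrays fitted, and the replicate block.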

Additional observations from a re-analysis of the deposited data

How the results depend on the processing

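Of 14 members called between segments averaged over genotypes, 12 stayed called under every alternative in which they were tested. Hoxa2 and Hoxb4 did not. Of the 12, Hoxb7, Hoxb8, Hoxc4 and Hoxc8 were not tested once genes under the 50th percentile were dropped. Over all settings this count ranged from 10 to 15. Leaving out 1 array gave 12 to 13 calls on average, 7 to 11 in WT and 6 to 11 in KO. The KO against WT count was less stable. In ascending aorta it was 0 of 32, but 2 once genes under the 50th percentile were dropped, 1 with a trended robust prior, and 0 to 0 without 1 array. In descending aorta it was 2, but 1 with no filter on dim genes, 1 with the replicate block, 0 with only the arrays compared and 0 to 1 without 1 array. Averaged over segments it was 5, but 3 once genes under the 50th percentile were dropped. That filter left Hoxb9 and Hoxc8 untested, while Hoxa2, Hoxb5 and Hoxc6 kept their calls. The count also changed when 1 array was left out. With Hoxb5's other probe set, an alternative added after seeing the data, its KO minus WT difference turned from 0.43 to -0.093. The interaction count was 0 in every setting. The causes of the other changes were not tested.

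The labels tie the replicate numbers to nothing, so they were not used as pairs; the deviations of same-numbered arrays correlated at -0.10 to 0.13. The replicate block gave 10 calls between segments in WT, 11 in KO and 13 on average, and 0, 1 and 4 for KO against WT in ascending, in descending and on average.

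The number of all genes called ranged from 63 to 444 between segments in WT (247 in the main setting), 54 to 430 in KO (247), 390 to 951 on average (677), and, for KO against WT, 64 to 1014 in ascending (455), 20 to 922 in descending (380) and 782 to 2604 on average (1902). With 2 arrays in a group, a member that did not pass is not shown to be equal between groups.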

Other observations

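Genes of the lists were also compared between KO and WT averaged over segments, a comparison added after the data were seen, with no alternatives run. Of the retinoic acid pathway 3 of 15 tested genes rose in KO and 0 fell, where 6.21% of all genes rose: Crabp2, a carrier of retinoic acid, by 0.55 (adjusted p 0.0281), Aldh1a2, which makes retinoic acid, by 0.46 (adjusted p 0.0327), and Dhrs3 by 0.36 (adjusted p 0.019). Of the TALE cofactors 1 of 8 rose, Pknox2 by 0.31 (adjusted p 0.0322). Of the Polycomb and trithorax regulators 1 of 19 rose, Wdr5 by 0.37 (adjusted p 0.0333), and 1 fell, Phc1, which fell by 0.32 (adjusted p 0.0497). Except for Dhrs3, these genes were named after their values were seen.

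Protein-coding neighbours of the clusters had segment differences of 0.10 for Skap2, -0.21 for Snx10, -0.14 for Skap1, -0.02 for Mtx2 and 0.03 for Lnpk, with adjusted p from 0.278 to 0.957. Evx1 and Evx2, homeobox genes at the ends of Hoxa and Hoxd, were at 0.21 and 0.03 (adjusted p 0.204 and 0.95). Some of these genes were also named after their values were seen.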
